A study of Mus musculus with 6 samples.

Results

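The mitochondrially encoded genes were taken as every row of the count table whose GRCm38 gene symbol starts with mt-. The rule found 37 of 54385 rows: 13 messengers, 2 ribosomal RNAs and 22 transfer RNAs, all of the genes annotated on chromosome M in GENCODE M21. Their RNA was counted by paired-end sequencing of total RNA from interscapular brown adipose tissue, a fat depot that makes heat. The mice were C57BL/6N, aged 20 weeks, fed chow to 8 weeks of age and then a high-fat diet for 12 weeks, and all were held at 4 °C for 24 h. Of the 6 libraries, 3 came from wild-type mice (genotype wt/wt, WT) and 3 from ADCY3∆AT mice, a knockout of the AT form of Adcy3, a truncated and cold-induced form of adenylyl cyclase 3, the enzyme that makes cyclic AMP. No Cre driver, floxed allele or sex is given in the labels, and no untreated or warm group was analysed here, so diet and cold are shared by both groups.

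Mitochondrial DNA is a small circle that is transcribed from both strands into long precursor RNAs. Transfer RNAs lie between most of the other genes, and their excision releases the messengers and the ribosomal RNAs. The messengers encode core subunits of respiratory complexes I, III, IV and V, while all other subunits and the proteins that transcribe mitochondrial DNA and translate its messengers come from the nucleus. Brown adipocytes are packed with mitochondria, in which uncoupling protein 1 turns the work of the respiratory chain into heat.

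Stretches of mitochondrial DNA have also been copied into the nuclear genome, and reads from such a copy and from its source can be told apart only where their bases differ. The first 60 bases of mt-Co2 are shown with those of 2 nuclear copies, whose counts are set beside the mt-Co2 values below. Gm28661 is a pseudogene on the minus strand of chromosome 1 (chr1:24614885-24615565, GRCm38) whose 681 bases are all identical to mt-Co2, and Gm13341 is a copy on chromosome 2 with 16 mismatches and 1 gap in its alignment. Capitals mark the 2 positions in this stretch at which Gm13341 differs.
mt-Co2: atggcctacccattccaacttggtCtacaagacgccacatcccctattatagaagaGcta
Gm28661: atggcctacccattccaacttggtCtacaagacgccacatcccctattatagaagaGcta
Gm13341: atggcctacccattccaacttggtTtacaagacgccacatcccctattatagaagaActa

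Gm28438 (chr1:24612775-24613119) differs from mt-Nd3 at 1 of 345 aligned bases, the substitution T3C, with positions counted from 1 at the 5′ end of mt-Nd3. The first bases of both are shown, with the differing base in capitals.
mt-Nd3: atTaacctgtacactgttatcttcatt
Gm28438: atCaacctgtacactgttatcttcatt

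Gm28437 (chr1:24613189-24613971) and Gm10925 (chr1:24613974-24614651) are identical to mt-Co3 over 783 bases and to mt-Atp6 over 678 bases. Gm29216 (chr1:24615706-24616197) matches the last 483 bases of mt-Co1 with 1 mismatch, A1066T in mt-Co1 numbering. These 5 copies lie side by side on chromosome 1. Next to them are Gm28439, identical to mt-Nd4 over 876 bases, and Gm10222, identical to mt-Nd4l over 294 bases, both of which were listed at 0 in all 6 libraries. A copy on chromosome 2, Gm13340, is 97.6% identical to mt-Co1. Reads from such rows cannot be told apart where their bases agree, and how the deposited counts divide them was not tested. Each messenger with a counted copy is therefore given below as deposited and with its copies' counts added. This alternative was chosen after the data had been seen.

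Some messengers also share bases with each other. The open reading frames of mt-Atp8 and mt-Atp6 overlap by 43 bases (chrM:7927-7969) and those of mt-Nd4l and mt-Nd4 by 7 bases (chrM:10167-10173). The overlaps are shown in capitals with their flanks, since reads that fall within them cannot be assigned to either gene alone.
mt-Atp8 and mt-Atp6: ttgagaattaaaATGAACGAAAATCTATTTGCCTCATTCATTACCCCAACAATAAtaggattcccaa
mt-Nd4l and mt-Nd4: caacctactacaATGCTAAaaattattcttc

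Library totals ranged from 44826777 to 54933588 estimated counts, so counting error on the class shares was small: the 95% Wilson interval of the mitochondrial share was at most 0.0235 percentage points wide in a library, and it covers counting error only. Levels below are CPM, counts scaled to a common library size with TMM factors, given for replicates 1, 2 and 3 of a group in turn. WT replicate 2 stood apart for the mitochondrial RNAs, with the highest level of 9 of 13 messengers, of both ribosomal RNAs and of 6 of the 8 transfer RNAs that could be tested. ADCY3∆AT replicate 1 was highest for the other 4 messengers. The summed CPM of 8 brown adipocyte markers was 18756 to 18895 in WT and 17823 to 18250.0 in ADCY3∆AT, with all 8 above 0 in every library. Every ADCY3∆AT sum thus lay below every WT sum, and its part in the results below was not tested. For 3 of the 8 (37.5%, beside 8.83% of all genes) every ADCY3∆AT library lay below every WT library. At an unadjusted edgeR p of 0.05, 2 were lower (25.0%, beside 5.78%), and edgeR called 0. The summed CPM of 16 skeletal muscle markers was 879 to 1875 in WT and 248 to 606 in ADCY3∆AT, and its part was not tested. Ckm, Myh7 and Pvalb were listed at 0 in some library. That of 5 endothelial markers was 816 to 880.1 in WT and 891 to 949 in ADCY3∆AT, and its part was not tested either. In 4 of the 5 (80.0%, beside 7.68% of all genes) every ADCY3∆AT library lay above every WT library. The sums overlapped between the groups for 6 macrophage markers (92.9 to 155 in WT, 108 to 165 in ADCY3∆AT). They also overlapped for 5 erythroid (1376 to 2009, 1329 to 1463) and 4 white adipocyte markers (26.3 to 40.9, 19.6 to 56.4). Adcy3 itself had a log2 fold change of -0.78 ± 0.14 (SE, edgeR adjusted p = 0.158). Its call depended on the setting, with an adjusted p of 4.26e-07 by DESeq2, of 0.00321 by edgeR with no low-count filter and of 0.00338 by edgeR without ADCY3∆AT replicate 3. Replicates are not stated to be separate animals, and each p-value therefore reflects only how far these samples spread, part of which may be technical.

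Mitochondrially encoded RNA made up 17.9% to 20.7% of each library, and the ranges of the genotypes overlapped. All 37 genes together held 18.5%, 20.7% and 18.4% of the counts in WT and 19.7%, 18.4% and 17.9% in ADCY3∆AT. The means were 19.2 ± 1.30% and 18.7 ± 0.917% (SD, n = 3 each), and the groups overlapped. The difference of -0.505 percentage points gave p = 0.5 in an exact two-sided permutation test (adjusted p = 0.9 over 4 share tests), where 3 against 3 libraries cannot go below 0.1. With the nuclear copies added, the means were 22.1 ± 1.30% and 22.1 ± 1.01%, and the difference was -0.048 percentage points (exact permutation p = 1). In bulk tissue, fewer cells of a type and less RNA per cell cannot be told apart.

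The messengers were the largest class by counts. They held 12.5%, 14.0% and 12.7% of the counts in WT and 13.5%, 12.6% and 12.6% in ADCY3∆AT, or 13.1 ± 0.786% and 12.9 ± 0.504% (SD, n = 3 each; exact permutation p = 0.7, adjusted 0.9). WT replicate 2 was again the highest library, and the 2 group ranges overlapped. With the nuclear copies added, the messenger share was 15.6%, 16.9% and 15.5% in WT and 16.8%, 16.3% and 15.7% in ADCY3∆AT. The ADCY3∆AT mean was then above the WT mean by 0.286 percentage points, with SDs of 0.774 in WT and 0.556 in ADCY3∆AT (n = 3 each; exact permutation p = 0.6, adjusted 1). The 7 added rows held 2.77% to 3.72% of a library.

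The ribosomal RNAs, which form the core of the mitochondrial ribosome, held 5.95%, 6.72% and 5.70% of the counts in WT and 6.23%, 5.80% and 5.33% in ADCY3∆AT (6.12 ± 0.532% and 5.79 ± 0.450%, exact permutation p = 0.5, adjusted 0.9). The transfer RNAs held almost nothing: 0.00108%, 0.00226% and 0.00123% in WT and 0.00108%, 0.00123% and 0.00138% in ADCY3∆AT (exact permutation p = 0.9). WT replicate 2 decided the direction of several of these differences. Without it, the ADCY3∆AT mean was above the WT mean by 0.244 percentage points for all 37 genes, by 0.280 for the messengers and by 0.000080 for the transfer RNAs, while the ribosomal difference was -0.035 percentage points.

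**Figure D1:**
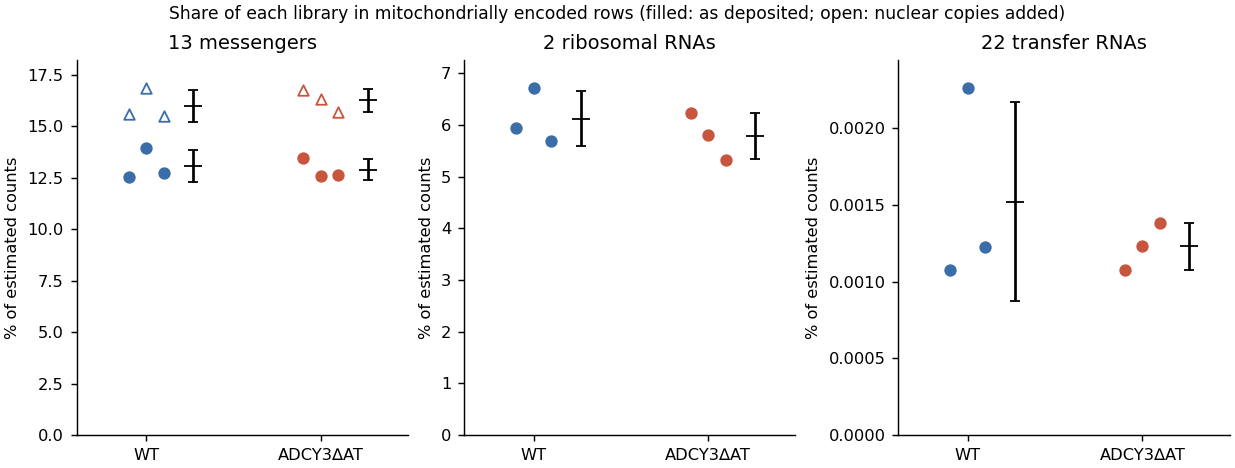
Percent of each library's estimated counts in the 13 messengers, the 2 ribosomal RNAs and the 22 transfer RNAs, with 1 point per library, WT in blue and ADCY3∆AT in red, and bars for the mean ± SD of 3 libraries. Filled circles are the table as deposited, and open triangles add the near-identical nuclear rows; the groups overlap in every panel, and the highest WT point of each panel is replicate 2.

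No mitochondrially encoded gene passed the genotype test. In edgeR's quasi-likelihood test, 0 of 13 messengers, 0 of 2 ribosomal RNAs and 0 of the 8 transfer RNAs with enough counts were called at an adjusted p of 0.05, beside 0.00552% of all 18114 genes tested, which is 1 gene. DESeq2 called none of them either, beside 1.15% of the genes it tested, and limma voom none, beside 0.011%. At an unadjusted p of 0.05 the count was again 0 for each class, beside 11% of all genes (5.23% higher and 5.78% lower). None of the 37 genes had groups that did not overlap, beside 16.5% of all genes tested (7.68% with ADCY3∆AT above and 8.83% with it below). The median log2 fold change of the messengers was -0.03, with 8 of 13 negative, beside 49.1% of all genes, and it was -0.0027 with 7 negative once the copies were added. Without WT replicate 2, 3 of 13 were negative and 4 were higher in ADCY3∆AT at an unadjusted p of 0.05, with 0 called. In the same fit, 3.2% of all 18610 genes tested were higher at that p.

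The 7 messengers of complex I, the enzyme that passes electrons from NADH to ubiquinone, included the lowest levels of the set. mt-Nd1, one of the membrane subunits, had 8336, 9090.2 and 7062 CPM in WT and 7424, 8342 and 7801 CPM in ADCY3∆AT (log2 fold change -0.06 ± 0.09, SE). mt-Nd2, a proton-pumping subunit, had 1690.1, 2159 and 1482 CPM in WT and 1715, 1892 and 1853 CPM in ADCY3∆AT (0.03 ± 0.12). In both genes all ADCY3∆AT libraries lay inside the WT range.

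mt-Nd4 and mt-Nd5 encode proton-pumping subunits related to bacterial antiporters. mt-Nd4 had 2335, 3080.2 and 2388 CPM in WT and 2922, 2891 and 2507 CPM in ADCY3∆AT (log2 fold change 0.09 ± 0.11). mt-Nd5 had 1801, 2346 and 1903 CPM in WT and 2118, 2097 and 1702 CPM in ADCY3∆AT (-0.03 ± 0.12). mt-Nd4l, whose short reading frame runs into that of mt-Nd4, had 162, 203 and 166 CPM in WT and 211, 199 and 174 CPM in ADCY3∆AT (0.14 ± 0.10). For mt-Nd4l, WT replicates 1 and 3 lay below all ADCY3∆AT libraries and WT replicate 2 lay among them.

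mt-Nd6 is the only messenger encoded on the other strand, and it spread more than the other complex I genes that have no counted copy. It had 156, 230.1 and 249.9 CPM in WT and 277, 172 and 184 CPM in ADCY3∆AT, with the highest and the lowest library in different groups (log2 fold change -0.01 ± 0.21). The sources used here do not give the strand setting of the counting, so reads of mt-Nd6 cannot be told apart from those of the opposite strand, on which the mt-Nd5 frame overlaps it.

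mt-Nd3, a small membrane subunit, had the most negative fold change of the messengers as deposited. Its row held 3802, 7172 and 4818 CPM in WT and 3144, 2497 and 5833 CPM in ADCY3∆AT, a 2.87-fold range over the 6 libraries (log2 fold change -0.46 ± 0.32, edgeR adjusted p = 0.645). The share of the pair that went to Gm28438, which differs by a single base, was 37.7%, 4.02% and 25.7% in WT and 49.1%, 57.6% and 8.98% in ADCY3∆AT. The libraries in which mt-Nd3 was low were those in which Gm28438 took a large share. Summed, the pair had 6100.0, 7473 and 6480.2 CPM in WT and 6178, 5895 and 6408 CPM in ADCY3∆AT. The log2 fold change of the sum was -0.12 ± 0.07 (edgeR adjusted p = 0.610), with a 95% interval of -0.29 to 0.05.

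mt-Cytb encodes cytochrome b, the only subunit of complex III made in the mitochondrion. It had 4842, 6038 and 4604 CPM in WT and 5822, 5945 and 5295 CPM in ADCY3∆AT. WT replicates 1 and 3 were the lowest libraries, as for mt-Nd4l, and WT replicate 2 was the highest for mt-Cytb. The log2 fold change was 0.14 ± 0.10 (edgeR adjusted p = 0.652, DESeq2 adjusted p = 0.851), with a 95% interval of -0.09 to 0.37.

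The 3 messengers of complex IV, cytochrome c oxidase, were the most abundant messengers once the nuclear copies were added. mt-Co1, which encodes the subunit that holds the site of oxygen reduction, had 63425, 68282 and 61626 CPM in WT and 69964, 64821 and 61503 CPM in ADCY3∆AT, the steadiest of the messengers with a 1.14-fold range. Its log2 fold change was 0.02 ± 0.06. Gm29216 took 9.45% to 11.0% of its pair in every library, and the sum had a log2 fold change of 0.03 ± 0.06. This copy covers only the last part of mt-Co1.

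mt-Co2 encodes the subunit that receives electrons from cytochrome c, and it had the largest within-group SD of log2 CPM among the messengers as deposited. Its row held 3787, 10798 and 9416 CPM in WT and 4269, 6347 and 8437 CPM in ADCY3∆AT, a 2.85-fold range (log2 fold change -0.33 ± 0.37, edgeR adjusted p = 0.782). Replicate 1 of each group was far below the others. Gm28661, with no differing base over its length, took 80.4%, 52.1% and 50.7% of the pair in WT and 79.8%, 69.0% and 57.3% in ADCY3∆AT, so in every library more counts were assigned to the nuclear row than to mt-Co2 itself. With the copies added, mt-Co2 had 19294, 22529 and 19107 CPM in WT and 21166, 20486 and 19755 CPM in ADCY3∆AT, a 1.18-fold range. The log2 fold change of the sum was 0.01 ± 0.07, with a 95% interval of -0.14 to 0.16. By contrast, Gm13341, whose differing bases are shown above, took 0.0079% to 0.0247% of the counts it shared with mt-Co2.

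mt-Co3, the remaining mitochondrial subunit of complex IV, had 23262, 21842 and 20246 CPM in WT and 26313, 17293 and 18101 CPM in ADCY3∆AT (log2 fold change -0.08 ± 0.15). Gm28437 took 16.3% to 38.1% of the pair. The sum was 27794, 31378 and 27913 CPM in WT and 31840.3, 27923 and 27158 CPM in ADCY3∆AT (log2 fold change -0.0027 ± 0.07). Its range over the libraries was 1.17-fold where that of mt-Co3 alone had been 1.52-fold.

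**Figure D2:**
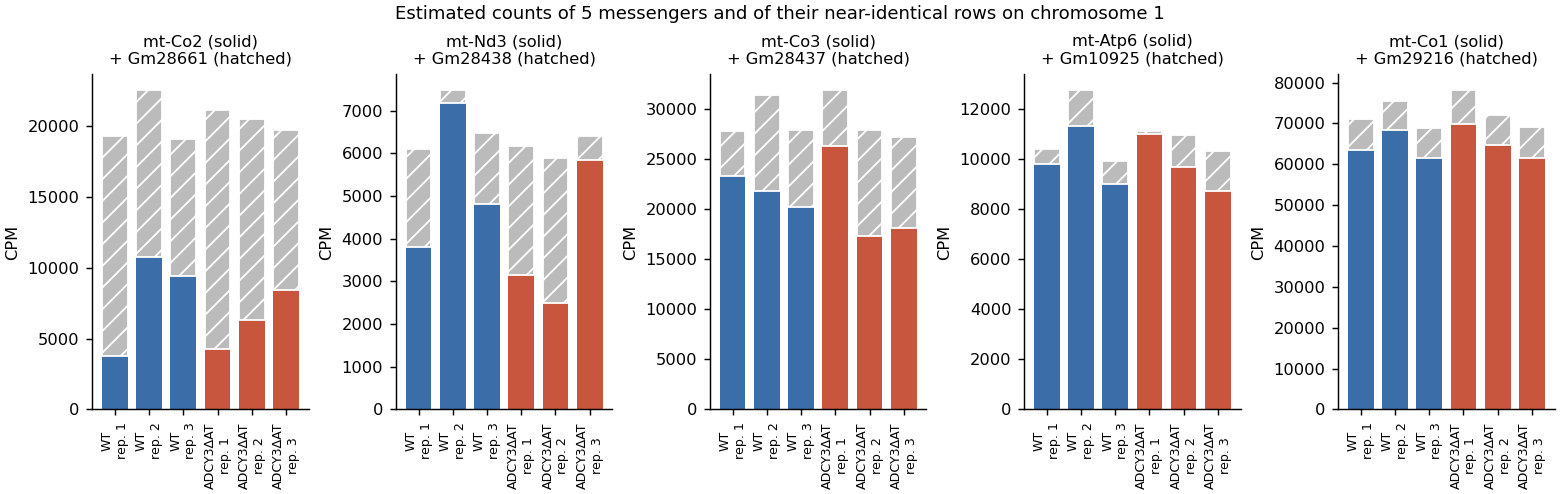
CPM of 5 messengers (solid, WT in blue and ADCY3∆AT in red) with the CPM of the near-identical row on chromosome 1 stacked on top (hatched), in each of the 6 libraries. The height of the solid part of mt-Co2 and mt-Nd3 differs by up to 2.85-fold and 2.87-fold between libraries, while the full bars differ by up to 1.18-fold and 1.27-fold.

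The 2 messengers of complex V, ATP synthase, are read from 1 overlapping transcript. mt-Atp8 had 1921, 2319 and 1739 CPM in WT and 1996, 2003 and 1868 CPM in ADCY3∆AT (log2 fold change -0.03 ± 0.10). mt-Atp6, which encodes the proton channel of the membrane part, had 9823, 11346 and 9036 CPM in WT and 11018, 9711 and 8750.4 CPM in ADCY3∆AT (-0.04 ± 0.10). Gm10925 took 1.07% to 15.5% of the mt-Atp6 pair. The sum was 10429, 12761.5 and 9941 CPM in WT and 11138, 10983 and 10355 CPM in ADCY3∆AT (log2 fold change -0.03 ± 0.09). Per length and with copies added, mt-Atp6 stood at 1.63 to 1.71 times mt-Atp8 in the 6 libraries, a narrow range that the genotypes shared (exact permutation p = 0.9, adjusted 1 over 5 ratios).

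The small ribosomal RNA, mt-Rnr1, had 5804, 7341 and 5570.5 CPM in WT and 6349, 5506 and 5453 CPM in ADCY3∆AT (log2 fold change -0.11 ± 0.11). The large one, mt-Rnr2, had 53726, 62318 and 50270.2 CPM in WT and 57037, 51630.3 and 46933 CPM in ADCY3∆AT (-0.10 ± 0.09). Both were highest in WT replicate 2 and lowest in ADCY3∆AT replicate 3. Per length, mt-Rnr2 stood at 5.12 to 5.66 times mt-Rnr1 in the counts. How evenly library preparation kept the 2 ribosomal RNAs and the messengers was not tested. Their proportions in the counts are therefore not proportions in the tissue. The ratio of ribosomal to messenger counts, with copies added, was 0.382 ± 0.0152 in WT and 0.355 ± 0.0156 in ADCY3∆AT (SD, n = 3 each; exact permutation p = 0.2, adjusted 1 over 5 ratios).

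With copies added, levels divided by gene length gave 1 order that held in all 6 libraries. In that order, mt-Co1 led with a mean of 46896 CPM per kb, followed by mt-Co3 (36991), mt-Rnr2 (33914) and mt-Co2 (29809). A middle group held mt-Nd3 (18455), mt-Atp6 (16057), mt-Atp8 (9678), mt-Nd1 (8369), mt-Rnr1 (6287) and mt-Cytb (4742 CPM per kb). The lowest were mt-Nd4 (1950.1), mt-Nd2 (1732), mt-Nd5 (1094), mt-Nd4l (626) and mt-Nd6 (408 CPM per kb). Each gene was above the next in 6 of 6 libraries. The ranges over libraries nevertheless overlapped between mt-Co3 and mt-Rnr2, mt-Rnr2 and mt-Co2, mt-Nd3 and mt-Atp6, mt-Atp8 and mt-Nd1, mt-Nd1 and mt-Rnr1, and mt-Nd4 and mt-Nd2. Within a library, mt-Co3 stood at 1.02 to 1.17 times mt-Rnr2, and mt-Nd1 at 1.17 to 1.51 times mt-Rnr1. As deposited, the order of the means differed. There mt-Rnr2 (33914) was above mt-Co3 (27011), and mt-Co2 (10491 CPM per kb) was below mt-Atp6 (14607) and mt-Nd3 (13058).

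**Figure D3:**
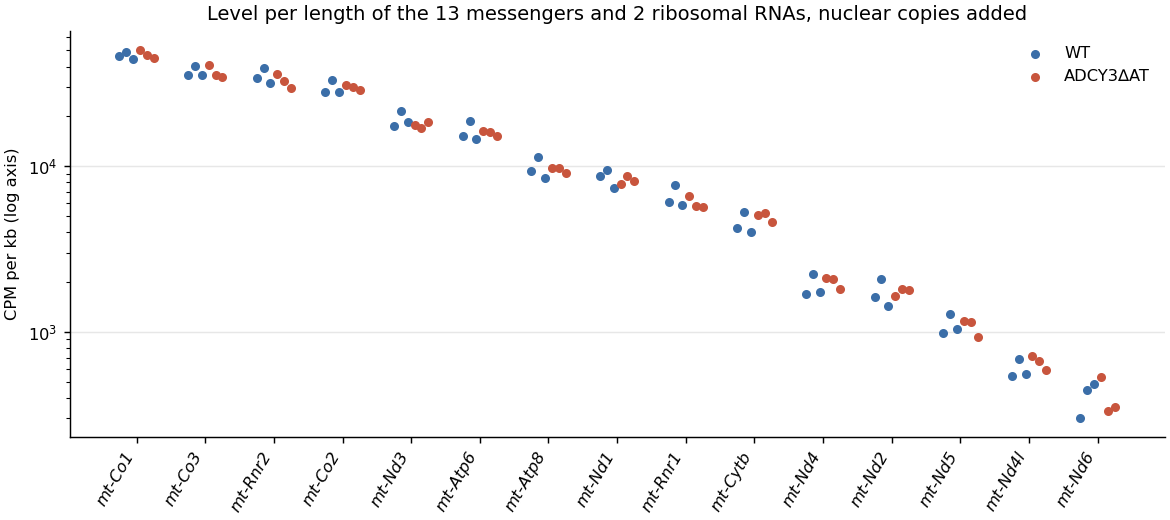
Level per length (CPM per kb, log axis) of the 13 messengers and 2 ribosomal RNAs with nuclear copies added, ordered by mean, with 1 point per library, WT in blue and ADCY3∆AT in red. From mt-Co1 at 46896 to mt-Nd6 at 408 CPM per kb the order of genes was the same in both genotypes, and the points of the genotypes interleave.

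mt-Co1 alone made up a mean of 50.0% of the messenger pool as deposited and 44.9% with copies added. In the pool as deposited, the shares of mt-Nd4l and mt-Cytb did not overlap between the genotypes. mt-Nd4l held 0.129%, 0.140% and 0.133% of the pool in WT and 0.154%, 0.160% and 0.140% in ADCY3∆AT (exact permutation p = 0.1, the smallest possible, adjusted 0.65 over 13 genes). mt-Cytb held 3.86%, 4.17% and 3.69% in WT and 4.24%, 4.79% and 4.27% in ADCY3∆AT, with the same p-values. Both shares depend on whether the counts of the nuclear rows are included in the pool. With these counts added, the groups overlapped for both genes, at 0.104% to 0.116% against 0.113% to 0.124% for mt-Nd4l, and the exact permutation p-values were 0.2 and 0.3.

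The 2 messengers with the widest between-library spread, mt-Co2 and mt-Nd3, both had a counted copy. The within-group SD of log2 CPM had a median of 0.180 over the 13 messengers, 0.162 over the 2 ribosomal RNAs and 0.153 over all genes tested. For mt-Co2 it was 0.68 as deposited and 0.10 with copies added, for mt-Nd3 0.55 and 0.11, and for mt-Co3 0.25 and 0.11. mt-Nd6, at 0.37, then had the widest spread of the messengers. The 79 nuclear genes with a mean of at least 1000 CPM had a median SD of 0.071, below that of the messengers with copies added, 0.154. The smallest SD among the messengers was that of mt-Co1, at 0.079.

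The intervals show how much genotype difference these libraries leave room for. With copies added, the 95% intervals of the log2 fold change ran at most from -0.49 to 0.48, both for mt-Nd6, and those of the other messengers and the ribosomal RNAs from -0.36 at the lowest (mt-Rnr1) to 0.38 at the highest (mt-Nd4l). For mt-Co1 the interval was -0.10 to 0.15 and for mt-Co3 -0.17 to 0.16. A p that misses the threshold does not show that the levels were equal.

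**Figure D4:**
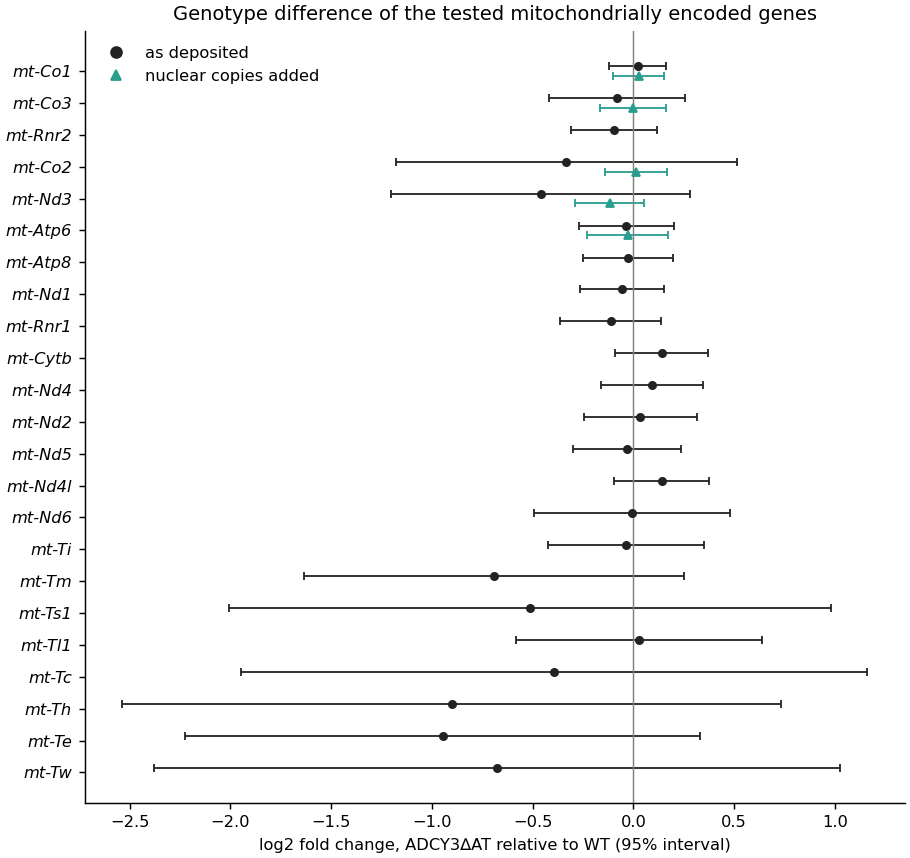
Log2 fold change of ADCY3∆AT relative to WT with its 95% interval from edgeR for the 13 messengers, the 2 ribosomal RNAs and the 8 tested transfer RNAs, as deposited (black) and, for the 5 messengers with counted copies, with copies added (green). Every interval includes 0; those of mt-Co2 and mt-Nd3 narrow once copies are added, and those of most transfer RNAs are wide.

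Transfer RNA counts were close to the detection limit. These genes are 59 to 75 bases long, and their counts summed to 501 to 1034 per library. How well library preparation kept such short RNAs was not tested. Low or absent counts therefore do not show that a transfer RNA was scarce in the tissue. Of the 22, 12 were above 0 in every library, 8 were at 0 in some libraries, and 2, mt-Tr and mt-Ts2, were listed at 0 in all 6. A count of 0 allows a level of up to 0.0546 to 0.0669 CPM, depending on the library (3 counts). The 14 genes on the plus strand summed to 451 to 773 counts and the 8 on the minus strand to 47.9 to 261. Of the 8 genes that passed the low-count filter, 5 are given by library below. The remaining 3 had log2 fold changes of 0.03 ± 0.27 (mt-Tl1, leucine), -0.39 ± 0.68 (mt-Tc, cysteine) and -0.68 ± 0.74 (mt-Tw, tryptophan). The 14 that did not pass had means under 10 counts.

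The sequences of the most counted transfer RNAs, mt-Ti, mt-Tm and mt-Ts1, are shown with those of mt-Te, which had the lowest p, and of the 2 genes with no count, with the anticodon in capitals. mt-Ti (chrM:3706-3774, plus strand) carries isoleucine and mt-Tm (chrM:3845-3913, plus) methionine. mt-Ts1 (chrM:6870-6938, minus) and mt-Ts2 (chrM:11613-11671, plus) carry serine, mt-Te (chrM:14071-14139, minus) glutamate and mt-Tr (chrM:9808-9875, plus) arginine.
mt-Ti: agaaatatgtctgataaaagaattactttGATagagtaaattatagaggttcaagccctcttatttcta
mt-Tm: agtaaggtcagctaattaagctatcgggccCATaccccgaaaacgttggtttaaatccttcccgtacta
mt-Ts1: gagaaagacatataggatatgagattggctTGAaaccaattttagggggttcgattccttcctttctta
mt-Te: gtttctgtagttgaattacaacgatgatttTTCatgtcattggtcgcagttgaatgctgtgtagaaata
mt-Tr: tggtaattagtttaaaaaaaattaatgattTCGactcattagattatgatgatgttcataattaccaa
mt-Ts2: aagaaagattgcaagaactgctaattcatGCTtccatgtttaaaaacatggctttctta

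mt-Ti alone held 44.1% of all transfer RNA counts, and the 3 highest genes held 72.9%. mt-Ti, which lies directly after mt-Nd1 and shares its first bases with it, had 4.76, 7.56 and 6.17 CPM in WT and 6.25, 6.34 and 5.38 CPM in ADCY3∆AT (log2 fold change -0.04 ± 0.17). mt-Tm, just upstream of mt-Nd2, had 2.08, 5.81 and 1.90 CPM in WT and 1.82, 1.91 and 2.30 CPM in ADCY3∆AT (-0.69 ± 0.41). Here the value of WT replicate 2 stood above all others, and without that library the log2 fold change was 0.01.

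Wide intervals were also found for mt-Ts1, mt-Te and mt-Th, with mean counts of 63.7, 18.9 and 22. The width did not follow counts alone. mt-Tl1, with a mean of 60.9 counts, had an SE of 0.27. Its within-group SD of log2 CPM was 0.35, where that of mt-Ts1 was 1.13. mt-Ts1, whose minus-strand gene overlaps the end of mt-Co1, had 1.20, 2.79 and 0.787 CPM in WT and 0.306, 0.914 and 2.11 CPM in ADCY3∆AT (log2 fold change -0.51 ± 0.65). mt-Te had 0.255, 1.02 and 0.350 CPM in WT and 0.241, 0.224 and 0.366 CPM in ADCY3∆AT (-0.95 ± 0.56, edgeR adjusted p = 0.580), and without WT replicate 2 its log2 fold change was -0.12. mt-Th, which carries histidine, had 0.383, 1.32 and 0.153 CPM in WT and 0.219, 0.264 and 0.495 CPM in ADCY3∆AT (-0.90 ± 0.71). In mt-Te and mt-Th, as in mt-Tm, WT replicate 2 was the highest library by far. The median within-group SD of log2 CPM over the 8 tested transfer RNAs was 0.871.

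The nuclear genes that transcribe and maintain mitochondrial DNA had a median difference near 0. Of 20 genes tested, 0 were called by edgeR, 0 by DESeq2 and 0 had an unadjusted p under 0.05, and the median log2 fold change was -0.01. The lowest p was that of Mgme1, a nuclease of mitochondrial DNA maintenance, with 16.2, 18.0 and 17.7 CPM in WT and 20.6, 18.5 and 18.9 CPM in ADCY3∆AT (log2 fold change 0.16 ± 0.07, edgeR adjusted p = 0.461). Tefm, the elongation factor, had -0.12 ± 0.08 and Ssbp1, the single-strand binding protein, -0.06 ± 0.07.

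The genes that cut, modify and stabilise mitochondrial RNA were more often negative than positive, with none called. Of 41 tested, 33 had a negative log2 fold change (80.5%, beside 49.1% of all genes). Of the 41, 8 had an unadjusted p under 0.05, all 8 lower (19.5%, beside 5.78% of all genes). In 12 of the 41 (29.3%, beside 8.83% of all genes) every ADCY3∆AT library lay below every WT library. The median log2 fold change was -0.06, and edgeR and DESeq2 each called 0 at an adjusted p of 0.05. With library totals alone as the scaling, 30 were negative (73.2%, beside 45.2% of all genes) and 6 were lower at that p (14.6%, beside 4.55%). Without WT replicate 2 the counts were 33 (80.5%, beside 48.2%) and 4 (9.76%, beside 4.0%). Other nuclear lists also had genes with every ADCY3∆AT library below every WT library. These were 27.8% of 18 complex V subunits, 22.2% of 9 in complex III and 21.4% of 14 in complex IV. They were 14.1% of 78 mitochondrial ribosomal proteins, 11.1% of 36 complex I subunits, 5.88% of 17 translation factors and 0% of 22 synthetases. Apart in the opposite direction were 2 of the 78 (2.56%), 1 of the 36 (2.78%) and 1 of the 22 (4.55%), beside 7.68% of all genes. Of 20 transcription genes, 0 lay below and 1 above (5.0%, beside the same 7.68%). The RNA processing list was drawn up with earlier results of these data known.

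Trmt10c, a subunit of the RNase P that cuts precursors at the 5′ ends of transfer RNAs, had the lowest p of that list. It had 36.6, 36.6 and 36.6 CPM in WT and 32.3, 32.0 and 33.7 CPM in ADCY3∆AT (log2 fold change -0.16 ± 0.05, edgeR adjusted p = 0.305). Fastkd5, needed to process messengers whose ends are not marked by a transfer RNA, had 21.9, 22.1 and 19.5 CPM in WT and 16.9, 15.5 and 19.3 CPM in ADCY3∆AT (-0.30 ± 0.09, adjusted p = 0.313). Mrm3, a methyltransferase of mt-Rnr2, had -0.18 ± 0.06 (edgeR adjusted p = 0.323). The other 5 with an unadjusted p under 0.05 were Grsf1, Nsun3, Hsd17b10, Trmt61b and Gtpbp3, named because they complete that count.

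None of the genes that use the transfer and ribosomal RNAs was called. Of 22 mitochondrial aminoacyl-tRNA synthetases, which load transfer RNAs, 12 were negative and 0 had an unadjusted p under 0.05, with a median of -0.0028. Lars2, Mars2 and Vars2 had the lowest p, with log2 fold changes of -0.16 ± 0.07, -0.14 ± 0.07 and 0.09 ± 0.04. Of 17 translation factors, 11 were negative and 0 had an unadjusted p under 0.05, led by Tufm at -0.09 ± 0.06, Mtg1 at 0.09 ± 0.08 and Oxa1l at -0.05 ± 0.05. Of 78 mitochondrial ribosomal proteins, 2 were lower and 1 higher at that p, namely Mrps23 (-0.16 ± 0.06), Mrpl47 (-0.15 ± 0.06) and Mrps30 (0.12 ± 0.05), and edgeR called 0. These were 2.56% and 1.28% of the list, beside 5.78% and 5.23% of all genes. Without ADCY3∆AT replicate 3 the counts were 6 lower (7.69%, beside 7.81%) and 3 higher (3.85%, beside 6.22%).

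The nuclear partners of the encoded subunits were mostly just below 0. Of 36 complex I subunits, 31 had a negative log2 fold change (86.1%, beside 49.1% of all genes). The median was -0.03, and 0 had an unadjusted p under 0.05. Ndufv3 (0.09 ± 0.05), Ndufb3 (-0.12 ± 0.07) and Ndufs8 (-0.09 ± 0.06) had the lowest p. With library totals alone as the scaling, 25 of the 36 were negative (69.4%, beside 45.2% of all genes). Without WT replicate 2 the count was 25 (69.4%, beside 48.2%), and without ADCY3∆AT replicate 2 it was 23 (63.9%, beside 49.3%). Of 9 complex III subunits 7 were negative, led by Uqcrfs1 (-0.09 ± 0.05), Uqcrb (-0.09 ± 0.06) and Uqcrh (-0.07 ± 0.05). Complex II has no mitochondrially encoded subunit, and 3 of its 4 genes were negative, with Sdha (-0.12 ± 0.07), Sdhc (0.06 ± 0.05) and Sdhb (-0.04 ± 0.05) having the lowest p.

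In complex IV, 12 of 14 nuclear subunits were negative (85.7%, beside 49.1% of all genes) and 1 stood far from the rest. Cox6a2, the heart and skeletal muscle isoform of subunit VIa, had 2.61, 1.32 and 3.78 CPM in WT and 0.262, 0.406 and 1.10 CPM in ADCY3∆AT. Its log2 fold change of -2.12 ± 0.54 was called by DESeq2 (adjusted p = 0.00189) but not by edgeR (adjusted p = 0.237). The summed skeletal muscle markers moved with it, at 879 to 1875 CPM in WT against 248 to 606 CPM in ADCY3∆AT. Of these 16 markers, 15 were lower at an unadjusted p of 0.05 (93.8%, beside 5.78% of all genes). At an adjusted p of 0.05, edgeR called 0 of the 16, beside 0.00552% of all genes, and DESeq2 called 1, beside 1.15%. Cox6c (-0.08 ± 0.06) and Cox7a2 (-0.06 ± 0.05) had the next lowest p. In complex V, 15 of 18 were negative (83.3%), and 11 were without ADCY3∆AT replicate 2 (61.1%, beside 49.3% of all genes). Atp5g1, an isoform of the rotor ring subunit, had 8.69, 6.81 and 8.99 CPM in WT and 5.14, 6.38 and 6.48 CPM in ADCY3∆AT (-0.45 ± 0.14, edgeR adjusted p = 0.316). Atp5mpl had -0.11 ± 0.06, and Atpif1, the inhibitor of the reversed enzyme, 0.24 ± 0.14.

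**Figure D5:**
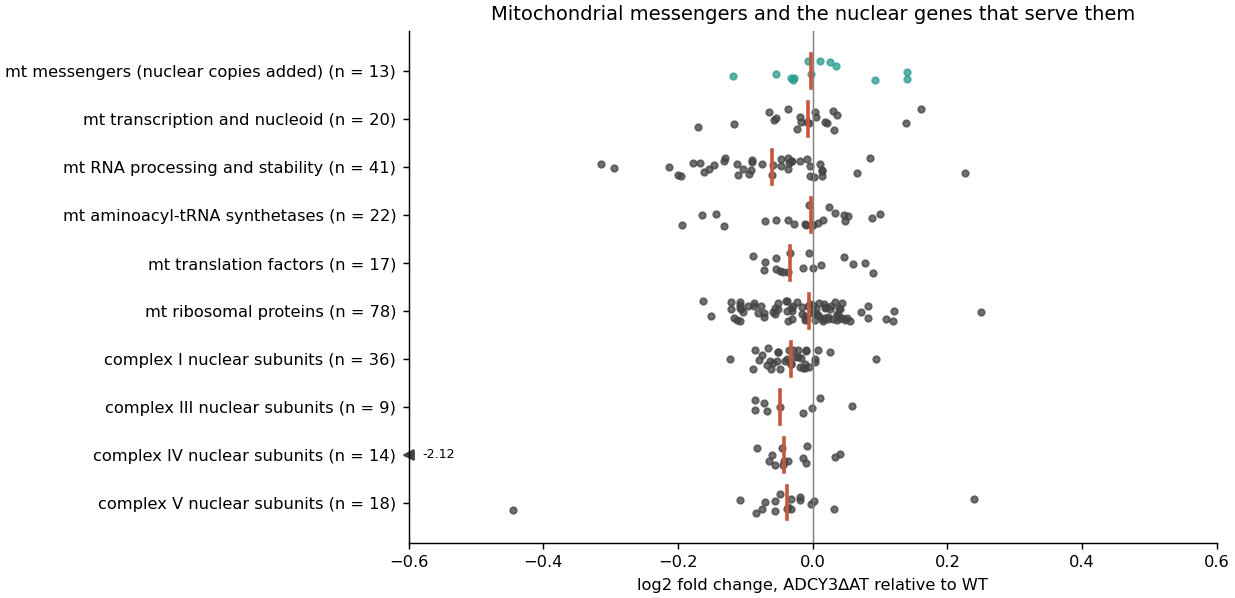
Log2 fold change of ADCY3∆AT relative to WT for the 13 messengers with copies added and for 9 lists of nuclear genes that serve them, with 1 point per tested gene and a red line at each list's median. The list for RNA processing and stability has its median at -0.06, and the arrow marks Cox6a2 at -2.12, outside the axis.

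Set against their nuclear partners, the encoded subunits had overlapping proportions in the genotypes. The summed CPM of the messengers, with copies added, divided by that of the nuclear subunits was 2.13 to 2.58 for complex I, 0.721 to 0.996 for complex III, 17.1 to 18.8 for complex IV and 0.825 to 1.04 for complex V over the 6 libraries. The group means were 2.32 ± 0.237 and 2.30 ± 0.117 for complex I and 0.811 ± 0.110 and 0.920 ± 0.0717 for complex III, WT first (SD, n = 3 each). For complexes IV and V they were 17.4 ± 0.611 and 18.0 ± 0.832, and 0.916 ± 0.111 and 0.934 ± 0.0480. The exact permutation p-values were 1, 0.3, 0.5 and 0.8, each 1 after adjustment over the 4 complexes.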

How the data were processed

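The authors deposited unnormalised estimated counts for each Ensembl gene, of which 31.6% are not whole. The submitters' processing notes list Salmon, StringTie, edgeR and GRCm38 with no version or role. The sources used here do not say how reads shared by near-identical rows were divided, nor the strand setting. The design text calls the depot inguinal and every sample label interscapular; the sample labels were followed.

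Of 54385 rows, 54131 had a symbol in GENCODE M21, and the 254 others held a median of 0.0271% of a library. Counts were rounded, filtered with filterByExpr (18114 genes) and scaled with TMM factors. All genes were tested with edgeR 4.0.16 in R 4.3.3 (quasi-likelihood F test on genotype alone, with Benjamini-Hochberg adjustment and a threshold of 0.05). The SE and 95% interval come from the F statistic. Fold changes are ADCY3∆AT relative to WT, and a prior count of 2 was used for log2 CPM. Class shares and ratios were compared with exact two-sided permutation tests of 20 assignments. Nuclear copies were rows whose GENCODE M21 transcript matched an encoded gene at 95% identity or more over at least 100 bases (blastn 2.17.0). The counts of the 7 with a mean of at least 10 were added to that gene as an alternative. Sequences come from the same transcripts.

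The other alternatives were RLE factors, library totals alone, scaling from nuclear rows, DESeq2 1.42.0, limma 3.58.1 voom, robust estimation, no low-count filter, 1 CPM in 3 libraries, an adjusted p of 0.1, other denominators for the shares, leaving out each library and the replicate number as a block. All 37 members are accounted for. Of the transfer RNAs, those with the 3 highest counts and the 3 lowest p-values are given in full, and of each nuclear list the 3 genes with the lowest p. Members and lists were chosen with earlier results of these data known. Prorp and Fastkd4 were counted under older symbols.

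All pairs of libraries differed by more than sampling noise, with a chi-square per degree of freedom of 22.3 to 65.6. On simulated data for this comparison (18114 genes) the test recovered 31.3% of genes changed by 1.5-fold, 59.7% by 2-fold and 92.4% by 4-fold. Of its calls, 8.96% were unchanged genes. The changed genes were a small part of the total, drawn at random over all levels. The percentages hold for that setting and were not worked out for rows as abundant as the messengers.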

Additional observations from a re-analysis of the deposited data

How the results depend on the processing

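The number of mitochondrially encoded genes called was 0 for each RNA class under all 18 alternatives. The number of genes called in the whole table was 1, and it was 229 with DESeq2, 214 with no low-count filter, 2 with limma voom, 2 with robust estimation, and 1 to 66 on leaving out a library in turn, with 66 without ADCY3∆AT replicate 3 and 2, 4 and 2 without WT replicate 1, 2 and 3. With the replicate number as a block it was 3, and 6 with the block and the near-identical rows added. The deviations of same-numbered libraries had correlations of -0.0857, -0.128 and -0.0864. With 3 libraries per group such values cannot decide whether the numbers pair libraries, and the labels do not say. No member was called with the block, and the sign-flip p of the shares was at least 0.5, where 0.25 is the smallest possible. The sign of small differences was not stable. With near-identical rows added, the log2 fold change of mt-Co2 was 0.011 (0.015 with the block) where it had been -0.33, and the messenger share difference was 0.286 where it had been -0.171 percentage points. mt-Nd6 was at 0.0027 with library totals alone and mt-Ti at 0.0044 with limma voom. On leaving out each library, log2 fold changes ran from -0.15 to 0.029 for mt-Nd1, -0.081 to 0.20 for mt-Nd2, -0.030 to 0.065 for mt-Co1, -0.12 to 0.095 for mt-Atp8, -0.13 to 0.059 for mt-Atp6, -0.30 to 0.028 for mt-Co3, -0.11 to 0.091 for mt-Nd5, -0.25 to 0.13 for mt-Nd6 and -0.19 to 0.020 for mt-Rnr1. They kept their sign but moved widely for mt-Nd3 (-0.90 to -0.17), mt-Co2 (-0.67 to -0.057), mt-Cytb (0.064 to 0.27), mt-Nd4 (0.022 to 0.23), mt-Nd4l (0.078 to 0.25), mt-Rnr2 (-0.17 to -0.0038) and mt-Te (-1.30 to -0.12). The ranges were -0.19 to 0.14 for mt-Ti, -0.96 to 0.012 for mt-Tm, -1.37 to 0.15 for mt-Ts1 and -1.36 to 0.26 for mt-Th. The share differences ran from -1.02 to 0.244 percentage points for all 37 genes, -0.461 to 0.280 for the messengers and -0.000515 to 0.000080 for the transfer RNAs, each highest without WT replicate 2. The cause of these changes was not tested. The median log2 fold change of all genes moved to at most 0.0188 under any scaling. The 14 transfer RNAs that were not tested had means under 10 counts.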
